A study of Mus musculus with 54 samples.

Results

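The genes described here encode the machinery that brings nuclear-encoded proteins into mitochondria, folds them and removes them. They were taken by name from the expression tables as protein-coding genes, 25 whose symbols start with Timm or Tomm followed by a number and 24 listed chaperones, proteases, processing peptidases and import factors. That gave 49 genes of 54356 in the tables. RNA from whole hearts and whole livers was sequenced from male C57BL/6 mice, with 9 hearts and 9 livers in all and 3 of each tissue per genotype. The genotypes were the wild type (Mrps12+/+) and mice homozygous for the error-prone (Mrps12 ep/ep) or the hyper-accurate (Mrps12 ha/ha) allele. All were 20 weeks old and ate a high-fat diet (HFD) with 42% of its energy from fat. Both mutants carry a homozygous amino acid change in MRPS12, a protein of the small mitochondrial ribosomal subunit at its decoding site. The mutations are in every tissue and the wild-type mice were age- and litter-matched, so the mutant and wild-type mice shared strain, age and diet. No mice on normal chow were analysed here.

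Most mitochondrial proteins are made in the cytosol and cross the outer membrane through the TOM complex. The TIM23 complex and its motor then draw those with a presequence into the matrix, and the TIM22 complex with the small TIM chaperones inserts carrier proteins into the inner membrane. In the matrix the presequence is cut off and HSP60, HSP10, mortalin and TRAP1 fold the chain, while the LONP1, CLPXP and AAA proteases of the matrix and inner membrane degrade what does not fold. Induction of several of these chaperones and proteases is the classical readout of the mitochondrial unfolded protein response. The comparisons here ask whether the RNA of this machinery differs when mitochondrial translation is inaccurate or overly accurate.

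Values are normalized counts, read counts that the authors scaled within each tissue so that mice can be compared. Hearts held 11202866 to 51480272 reads on genes and livers 21238038 to 81518277. Mouse 2 of the Mrps12 ha/ha hearts was the shallowest, with 1 read worth 3.02 normalized counts, and stood apart from the other 2 mice of its genotype. In a fit that weighs mice by their scatter it got the lowest weight of the 9 hearts, 0.167, against 0.713 for mouse 1 and 1.81 for mouse 3. Heart fold changes of Mrps12 ha/ha against wild type are therefore given with and without this mouse, in the text or in the plot of fold changes. For the other comparisons with these hearts, values over all mice are given for some genes, with the smallest adjusted p. Over the genes described here the values of heart mouse 2 of Mrps12 ep/ep were also low, with 45 of 47 below the wild-type mean and a median of -0.34 on the log2 scale. That heart had the highest summed level of 6 atrial markers, 387861, against 1687 to 168537 in the other 8 hearts, and a part of atrial tissue in these values was not tested. The summed level of 6 cardiomyocyte markers was 1920978 to 3369372 in the hearts, and that of 6 hepatocyte markers was 4553342 to 6532829 in the livers, so each tissue expressed the markers of its label. In the hearts the hepatocyte sum was 4559 to 16018 in Mrps12+/+ and 381 to 12166 in Mrps12 ep/ep, where mouse 2 was lowest. It was 2431.5, 15200 and 4198 in Mrps12 ha/ha mice 1, 2 and 3. The cardiomyocyte sum was 7439 in liver mouse 3 of Mrps12 ha/ha and 41.4 to 444 in the other livers. The part of RNA from another tissue in the results was not tested.

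Of the 49 genes, 47 had a mean of at least 10 in both tissues and entered the tests. The 2 that did not, Timm8a2 and Tomm20l, are copies of Timm8a1 and Tomm20 and had heart means of 0.56 and 0.71 and liver means of 0.17 and 0.27. The levels of the other genes differed widely. On a scale of counts per exonic length, set to a common total for each mouse, the highest in wild-type hearts were Hspa9, which encodes mortalin, at 590 ± 13.4 (SD, n = 3), and Hspd1, which encodes HSP60, at 581 ± 38.5. In wild-type livers Hspd1 was highest at 382 ± 18.8, followed by Hspa9 at 278 ± 36.5. The lowest of the tested genes in both was Pam16, a regulator of the import motor, at 4.65 ± 0.68 in hearts and 1.09 ± 0.68 in livers. On the same scale 39 of the 47 genes were higher in wild-type hearts than livers and 8 were lower, with a median heart-to-liver ratio of 1.86. The tables of the tissues were normalized apart, so these ratios are a description and were not tested.

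In the heart, Mrps12 ha/ha mice 1 and 3 had lower RNA for most of the large chaperones and proteases and higher RNA for several small import proteins, and mouse 2 did not share most of the decreases. Hspd1 was 20868, 17703 and 17893 in the Mrps12+/+ hearts, 19172, 13558 and 20721 in the Mrps12 ep/ep hearts and 9003, 19522 and 8568 in the Mrps12 ha/ha hearts. Mice 1 and 3 of Mrps12 ha/ha therefore lay below all of the other hearts, and mouse 2 lay among the wild-type values. The log2 fold change of ha/ha against wild type was -0.71 ± 0.30 (SE) with an adjusted p of 0.24 from limma. Dnaja3, an HSP40 partner of mortalin, had the same shape, with 6281, 5538 and 5621 in Mrps12+/+ and 2840, 5944 and 3007 in Mrps12 ha/ha hearts. Hspa9 was 32559, 29564 and 31386 in Mrps12+/+ and 18002, 32348 and 17825 in Mrps12 ha/ha hearts.

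Across all 3 hearts of each genotype no member passed the test. In Mrps12 ha/ha against Mrps12+/+, 0 of 47 had an adjusted p under 0.05, where the background over all 16057 genes tested was 0.0311%. Before adjustment 9 of 47 members had p under 0.05 from limma, 4 higher and 5 lower, beside 3168 of all 16057 genes. Limma-voom on whole reads called 0 members. The median log2 fold change of the members was -0.04 against -0.02 over all genes tested, with 19 above and 28 below 0. The groups of 3 did not overlap for 6 members, against 21.2% of all genes. These were Timm10b, Timm13, Tomm7 and Clpp, which were higher in Mrps12 ha/ha hearts, and Timm21 and Yme1l1, which were lower.

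Without heart mouse 2 of Mrps12 ha/ha, 16 of the 47 members passed, where 27% of all genes did. The list of these 16 was drawn up after their values were seen, and the fit then rests on 2 mutant hearts. Of the 16, 13 fell and 3 rose, against backgrounds of 14.8% of all genes lower and 12.2% higher. Fold changes below are from this fit, with its adjusted p from limma. The fold changes over all 3 mice are in the plot of fold changes, and there every member had an adjusted p from limma of 0.198 or more. Mouse 2 did not share most of the decreases, so leaving it out favours genes on which mice 1 and 3 agree. The small p-values of this fit are therefore no independent support for a difference between the genotypes.

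**Figure D1:**
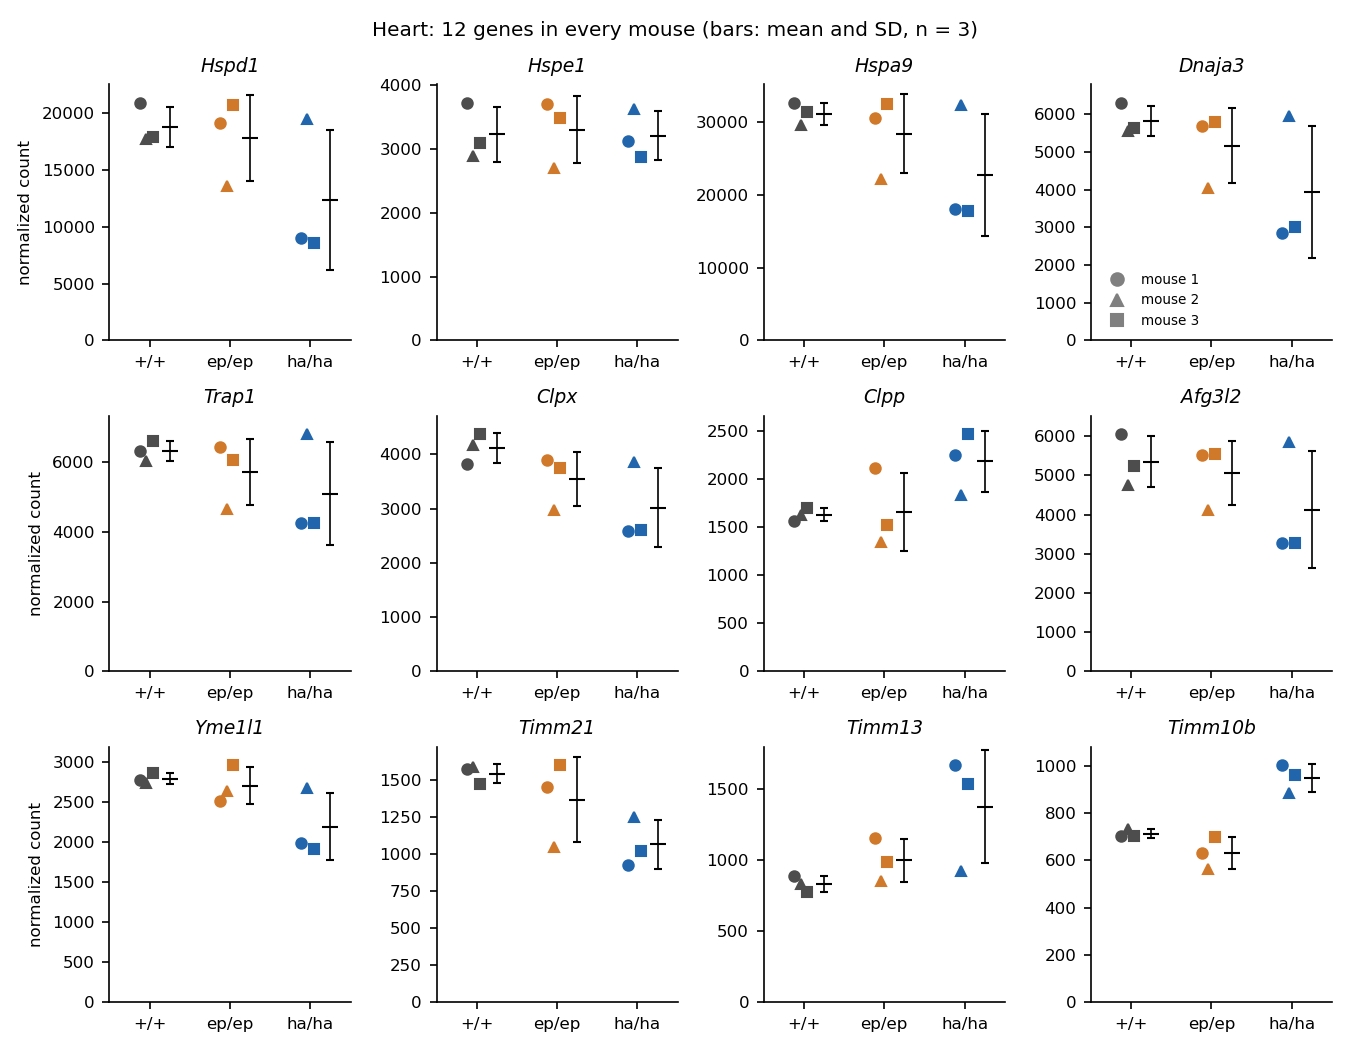
Normalized counts of 12 genes in each heart, by genotype (+/+, ep/ep and ha/ha of Mrps12), with circles for mouse 1, triangles for mouse 2 and squares for mouse 3, and bars for the mean and SD of 3 mice. Mice 1 and 3 of ha/ha lie below the wild-type hearts for Hspd1, Hspa9, Dnaja3, Trap1, Clpx and Afg3l2 while mouse 2 does not, and all 3 ha/ha hearts lie above the wild type for Timm10b, Timm13 and Clpp.

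The matrix chaperones held the largest decreases. Hspd1 was lower by a fold of 0.468 (log2 -1.10 ± 0.18, adjusted p = 0.00557) and Dnaja3 by a fold of 0.504 (log2 -0.99 ± 0.16, adjusted p = 0.00512). Trap1, the mitochondrial HSP90, was 6306, 6012 and 6600 in Mrps12+/+ and 4247, 6783 and 4249 in Mrps12 ha/ha hearts. Without mouse 2 its fold was 0.674 with an adjusted p of 0.019. Hspe1, which encodes the HSP10 lid of the HSP60 chamber, differed little, with 3716, 2889 and 3097 in Mrps12+/+ and 3129, 3624 and 2876 in Mrps12 ha/ha hearts. Its log2 fold change was -0.01 ± 0.16 with all mice and -0.10 ± 0.16 (adjusted p = 0.668) without mouse 2.

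Hspd1 and Hspe1 are neighbours that are read in opposite directions from a shared start region on chromosome 1 (Hspd1 at chr1:55077835-55088243, minus strand, and Hspe1 at chr1:55088132-55091307, plus strand, GRCm38). Of the 300 bases of the Hspe1 promoter given by RefSeq (GRCm38.p6), 285 are also those of an Hspd1 promoter on the other strand. The Hspe1 promoter is shown because the pair parted in the ha/ha hearts, with capitals for a heat shock element and the CCGGAAG motif of GABP (NRF-2) on both strands, which overlap, at chr1:55087898-55088197, plus strand.
Hspe1: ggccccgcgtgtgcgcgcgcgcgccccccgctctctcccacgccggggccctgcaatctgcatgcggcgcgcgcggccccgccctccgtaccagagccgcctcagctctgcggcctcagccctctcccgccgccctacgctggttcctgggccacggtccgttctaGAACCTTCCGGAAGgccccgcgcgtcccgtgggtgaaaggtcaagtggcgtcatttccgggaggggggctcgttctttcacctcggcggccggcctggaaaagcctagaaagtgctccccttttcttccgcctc

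Counted from the Hspe1 start, the heat shock element began 84 bases upstream (position -84). The ratio of Hspd1 to Hspe1 counts does not depend on the scaling of a mouse, but does not remove an effect of transcript length. It was 5.62, 6.13 and 5.78 in the Mrps12+/+ hearts and 5.17, 5.01 and 5.93 in the Mrps12 ep/ep hearts. In the Mrps12 ha/ha hearts it was 2.88, 5.39 and 2.98, below every wild-type heart. In the livers it lay between 3.27 and 4.23 in all 9 mice, with 3.44, 3.54 and 4.23 in Mrps12+/+, 3.37, 3.42 and 3.38 in Mrps12 ep/ep and 3.63, 3.71 and 3.27 in Mrps12 ha/ha. The ep/ep livers lay just below the wild-type livers, and the ha/ha livers overlapped both.

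The import motor and the inner membrane channel divided between genes that fell and genes that did not. Hspa9, the motor's HSP70, fell by a fold of 0.575 (log2 -0.80 ± 0.17, adjusted p = 0.012) without mouse 2. The other 5 motor genes did not pass. Grpel1 and Grpel2, nucleotide exchange factors of mortalin, had log2 fold changes of -0.32 ± 0.16 and -0.08 ± 0.18. Timm44, which tethers mortalin to the channel, was at -0.13 ± 0.12, and Dnajc19, a J-protein of the motor, at 0.23 ± 0.15. Pam16 was too variable to read, with 272, 72 and 134 in the Mrps12 ha/ha hearts and 118 to 166 in the Mrps12+/+ hearts.

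Of the 5 genes of the TIM23 channel, Timm21 and Timm17a fell without mouse 2 and the others did not pass. Timm21, which links the channel to the assembly of respiratory chain complexes, was 1569, 1586 and 1469 in Mrps12+/+ and 928, 1247 and 1019 in Mrps12 ha/ha hearts. All 3 mutant hearts were thus below all wild-type hearts, with a log2 fold change of -0.54 ± 0.17 (adjusted p = 0.21) over all mice and -0.66 ± 0.17 (adjusted p = 0.0227) without mouse 2. Timm17a, a core subunit, was 4590, 4294 and 4116 against 2973, 4551 and 3297, and its fold without mouse 2 was 0.723 (adjusted p = 0.037). Its paralog Timm17b was 693, 657 and 706 in Mrps12+/+ and 751, 870 and 706 in Mrps12 ha/ha hearts. The channel protein Timm23 had a log2 fold change of -0.36 ± 0.14 and the receptor Timm50 one of 0.18 ± 0.15, and neither passed.

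Of the 3 members that rose, Timm13 and Timm10b encode small TIM proteins of the intermembrane space. Timm13, which escorts hydrophobic precursors together with TIMM8 proteins, was 888, 832 and 777 in Mrps12+/+ and 1664, 924 and 1535 in Mrps12 ha/ha hearts. Its fold was 1.92 (log2 0.94 ± 0.14, adjusted p = 0.00402) without mouse 2, while over all mice the log2 fold change was 0.68 ± 0.21 (adjusted p = 0.21). Timm10b, a small TIM bound to the TIM22 complex, was 704, 735 and 702 in Mrps12+/+, 632, 562 and 698 in Mrps12 ep/ep and 1001.4, 885 and 963 in Mrps12 ha/ha hearts. All 3 ha/ha hearts, mouse 2 included, exceeded all other hearts for this gene. Its log2 fold change against wild type was 0.41 ± 0.12 over all mice (adjusted p = 0.198) and 0.46 ± 0.11 without mouse 2 (adjusted p = 0.0193). Against Mrps12 ep/ep it was 0.59 ± 0.12 over all mice, and its adjusted p from limma was 0.184.

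Other members of this group behaved differently. Timm29, a subunit of the TIM22 complex, was 2602, 2188 and 2371 in Mrps12+/+ and 1511, 2492 and 1618 in Mrps12 ha/ha hearts, a fold of 0.657 (adjusted p = 0.00617) without mouse 2. The remaining 5, Timm8a1, Timm8b, Timm9, Timm10 and Timm22, had log2 fold changes between -0.20 and 0.20 and did not pass.

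At the outer membrane, 1 of 8 tested TOM genes rose and 1 fell without mouse 2. Tomm7, which tunes the assembly of the TOM complex, was 1484, 1708 and 1628 in Mrps12+/+ and 2106, 1851 and 2149 in Mrps12 ha/ha hearts, without overlap, and its fold was 1.33 (adjusted p = 0.0296). Tomm70a, the receptor for carrier precursors, was 3881, 3121 and 3233 against 2091, 3866 and 2325, a fold of 0.649 (adjusted p = 0.0208). The presequence receptors did not pass. Tomm20 was 2664, 2442 and 2506 in Mrps12+/+ and 2564, 3443 and 2965 in Mrps12 ha/ha hearts, and the log2 fold change of Tomm22 was -0.09 ± 0.13. Tomm5 was 3000, 2412 and 2179 against 2524, 2776 and 2402, and the pore gene Tomm40 was 2044, 2116 and 1873 against 2108, 2174 and 2120. Tomm34, a cytosolic cochaperone, had a log2 fold change of 0.06 ± 0.09.

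The proteases that use ATP fell where they passed, and the peptidase partner of CLPX did not. Clpx, the unfoldase, was 3819, 4180 and 4370 in Mrps12+/+ and 2597, 3857 and 2606 in Mrps12 ha/ha hearts, a fold of 0.632 (adjusted p = 0.00846) without mouse 2. Clpp, the peptidase that it feeds, was 1566, 1622 and 1705 in Mrps12+/+ and 2257, 1839 and 2465 in Mrps12 ha/ha hearts. The groups did not overlap for Clpp, but its adjusted p was 0.239 with all mice and 0.0544 without mouse 2. The ratio of Clpp to Clpx was 0.410, 0.388 and 0.390 in the Mrps12+/+ hearts and 0.869, 0.477 and 0.946 in the Mrps12 ha/ha hearts. Lonp1, the other ATP-dependent protease of the matrix, was 7518, 6129 and 6457 against 5073, 7070 and 5698 and did not pass (adjusted p = 0.161 without mouse 2).

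Of the 5 inner membrane proteases, all had log2 fold changes below 0 and 3 passed without mouse 2. Afg3l2, a catalytic subunit of the m-AAA protease, was 6041, 4762 and 5242 in Mrps12+/+ and 3262, 5838 and 3276 in Mrps12 ha/ha hearts, a fold of 0.614 (adjusted p = 0.0137). Yme1l1, the i-AAA protease, was 2778, 2738 and 2865 against 1984, 2673 and 1914, a fold of 0.698 (adjusted p = 0.00674), with all 3 mutant hearts below the wild type. Oma1, which cuts the fusion protein OPA1 under stress, was 1297, 1195 and 1133 against 790, 1314 and 797, a fold of 0.658 (adjusted p = 0.0114). The remaining m-AAA genes Spg7 and Afg3l1 had log2 fold changes of -0.33 ± 0.13 and -0.16 ± 0.15. The ratio of Afg3l1 to Afg3l2 was 0.407 to 0.410 in the Mrps12+/+ hearts and 0.614, 0.401 and 0.579 in the Mrps12 ha/ha hearts.

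The subunits of the processing peptidase also parted. Pmpca, its alpha subunit, was 7037, 6282 and 6603 in Mrps12+/+ and 4657, 6617 and 4852 in Mrps12 ha/ha hearts, a fold of 0.717 (adjusted p = 0.0289) without mouse 2, whereas Pmpcb, the catalytic beta subunit, was 7405, 6243 and 6488 against 7450, 7152 and 6324. The prohibitins Phb and Phb2, which form a ring that binds the m-AAA protease, had log2 fold changes of -0.41 ± 0.16 and -0.12 ± 0.15 and did not pass. Nor did Chchd4 and Gfer, which oxidize cysteines of imported proteins, or Htra2, a protease of the intermembrane space.

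**Figure D2:**
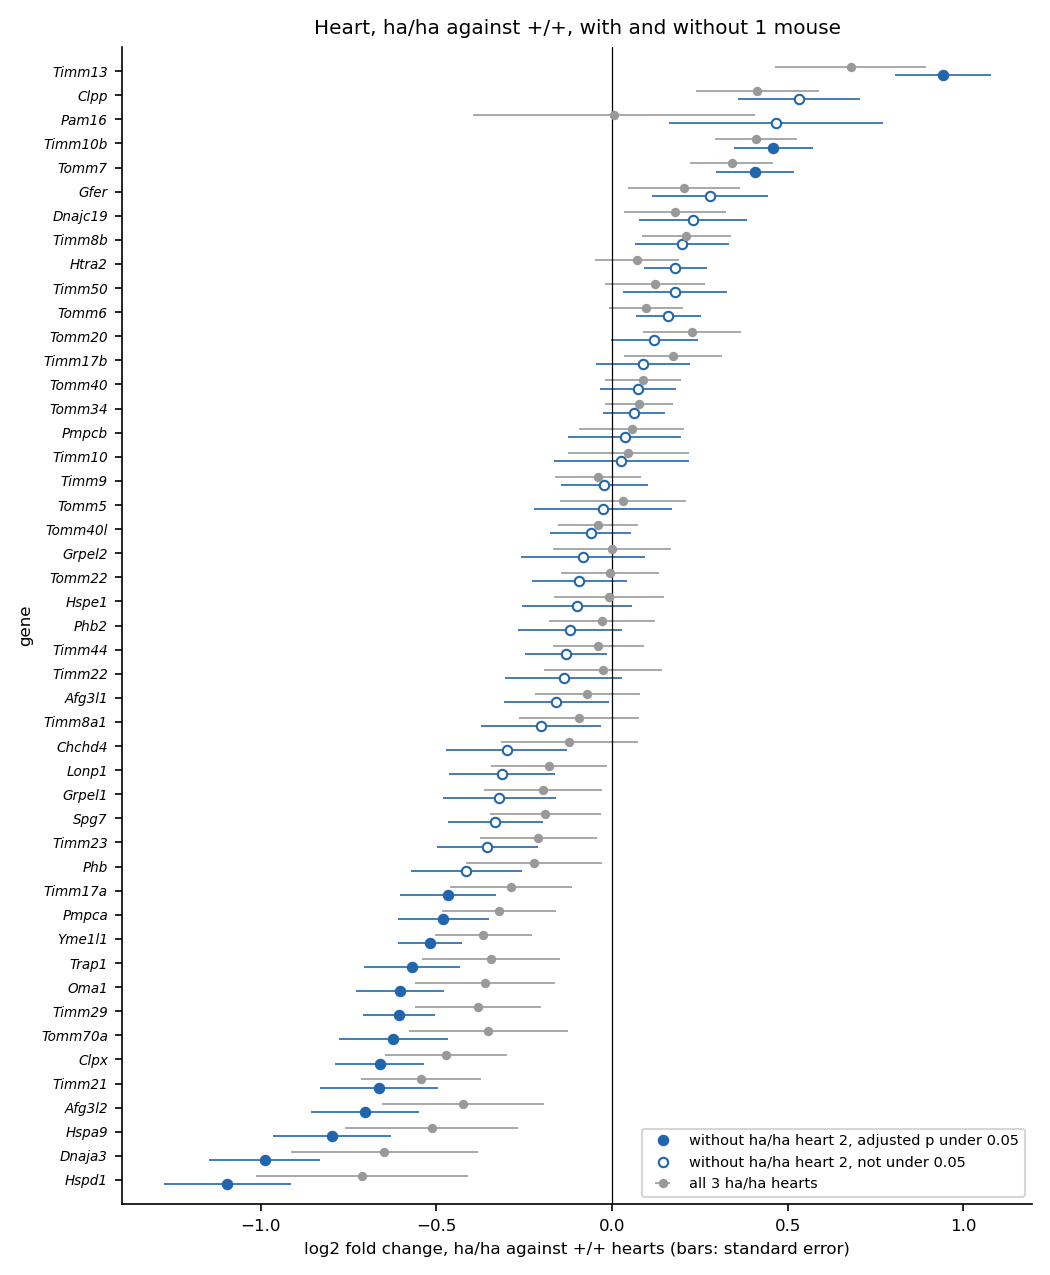
Log2 fold change of Mrps12 ha/ha against +/+ hearts for the 47 genes tested, with all 3 ha/ha hearts (grey) and without ha/ha heart 2 (blue, filled where the adjusted p was under 0.05), and bars for the standard error. Without that mouse 13 genes are lower, down to Hspd1 at -1.10, and 3 are higher, up to Timm13 at 0.94.

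The decreases and increases went with the length of the transcript. For each gene the transcript with the longest coding sequence was taken from GENCODE. The 13 genes that fell without mouse 2 had transcripts of 1915 to 7280 bases with a median of 3049, and the 3 that rose had transcripts of 494 to 1225 bases. Over the 47 members Spearman's rho between length and log2 fold change was -0.577 without mouse 2 and -0.535 with it. Over 14156 coding genes tested it was -0.162 and -0.166. The rho with GC content was 0.401 over the members and 0.262 over the coding genes without mouse 2. For Mrps12 ep/ep against wild type in the heart the rho with length was -0.086 over the members, and for Mrps12 ha/ha against wild type in the liver it was -0.352. These correlations are across genes of the same libraries, and genes are not independent replicates. Transcripts of Hspd1 (2423 bases), Clpx (2885) and Pmpca (3135) are longer than those of their partners Hspe1 (774), Clpp (983) and Pmpcb (1615). That of Timm17a (7280) is longer than that of Timm17b (2381), and that of Afg3l2 (3094) is shorter than that of Afg3l1 (4227). The part of transcript length or RNA quality in the fold changes and in the ratios of paired genes was not tested. Erythroid markers also moved with the same mice. The summed level of 5 was 464387 in mouse 1 and 1411965 in mouse 3 of Mrps12 ha/ha, 199245 in mouse 2 and 91865 to 235641 in the wild type. Cardiomyocyte markers moved both ways in these mice. Myh6, the alpha myosin heavy chain, was 2130354 in mouse 1 and 1846145 in mouse 3, 1185571 in mouse 2 and 1031675 to 1248721 in the wild type, and it was the most abundant of the 6 markers. Ryr2, the calcium release channel, was 16285 and 19113 in mice 1 and 3, 44622 in mouse 2 and 47154 to 53594 in the wild type. Other markers were low in all 3 ha/ha hearts, mouse 2 included, but low atrial sums were also found in the other genotypes. The sum of 6 atrial markers was 5235, 4563 and 10430, far below mice 2 and 3 of the wild type (168537 and 122936) and near mouse 1 (8114). In the Mrps12 ep/ep hearts the atrial sum was 1687, 387861 and 95794.5. The sum of 4 mesothelium markers was 506, 405 and 306, below the 836 to 1623 of the wild type and the 604 to 2603 of Mrps12 ep/ep. The part of blood, atrial tissue and cell makeup in the result was not tested, and in whole tissue fewer cells of a type and less RNA per cell cannot be told apart.

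**Figure D3:**
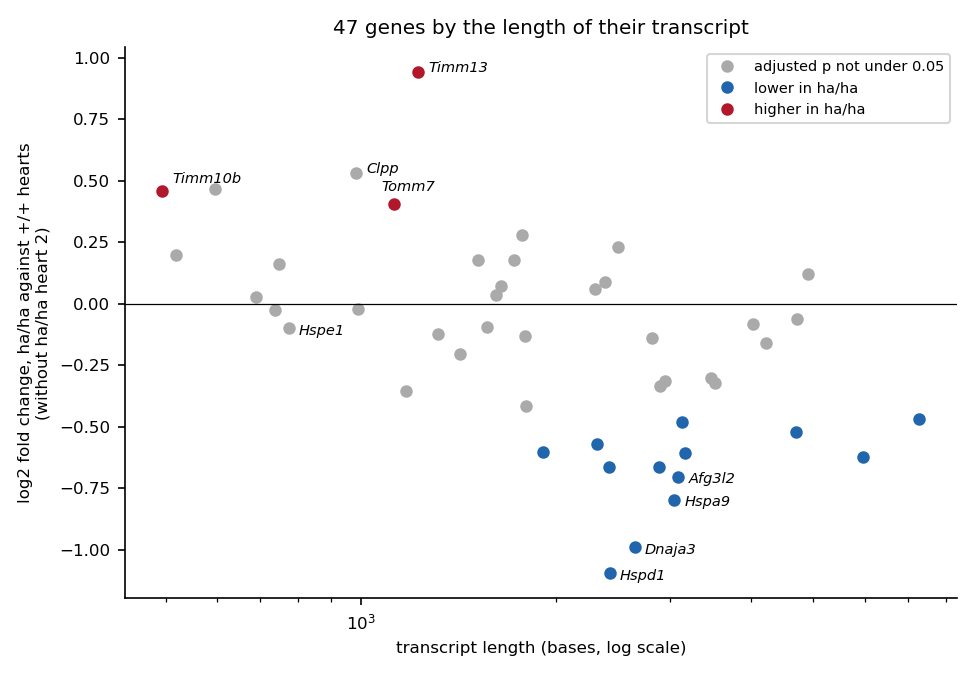
Log2 fold change of Mrps12 ha/ha against +/+ hearts, without ha/ha heart 2, against transcript length in bases on a log axis, with 1 point for each of 47 genes. The 13 genes that fell (blue) have transcripts of 1915 bases or more and the 3 that rose (red) have 1225 bases or fewer, and Spearman's rho is -0.577.

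Promoters of the members were searched for motifs of factors known to act on mitochondrial genes, and 42 of the 49 genes had at least 1 promoter in RefSeq. CCGGAAG, the motif of GABP, was in the promoters of 18 of the 42 genes (42.9%), against 8.86% of all 32851 promoters and 15.2% of the 14722 promoters of other coding genes tested. It was in 6 of the 10 genes with a promoter that fell in the heart and 1 of 2 that rose. GCGCATGCG, the NRF-1 motif, was in those of Clpx and Timm13, in 1.75% of all promoters and in 3.14% of those of other coding genes tested. The heat shock element GAANNTTC was in those of Hspd1, Hspe1 and Timm9, and in 7.86% and 5.96% of the same sets. TGACGTCA (CRE) was in that of Trap1 and in 1.79% and 2.76% of these sets. TCAAGGTCA (ERR) was in that of Timm8b and in 0.423% and 0.272%. TGATGNAAT, the ATF4 and CHOP composite, was in 0 of the 42 and in 0.965% and 0.523%. Members were counted by gene, with a match in any of their 45 promoters, and the backgrounds by promoter. Hspd1 and Hspe1 were each counted although their promoters overlap. Both strands were searched, and a match describes the letters in the window and is no evidence of binding. The promoters of a gene that fell, Dnaja3, and of the gene that rose most, Timm13, are shown with their matches in capitals. The match is CCGGAAG in Dnaja3 (chr16:4683820-4684119, plus strand) and the NRF-1 motif on the reverse strand in Timm13 (chr10:80900920-80901219, minus strand), both GRCm38.p6.
Dnaja3: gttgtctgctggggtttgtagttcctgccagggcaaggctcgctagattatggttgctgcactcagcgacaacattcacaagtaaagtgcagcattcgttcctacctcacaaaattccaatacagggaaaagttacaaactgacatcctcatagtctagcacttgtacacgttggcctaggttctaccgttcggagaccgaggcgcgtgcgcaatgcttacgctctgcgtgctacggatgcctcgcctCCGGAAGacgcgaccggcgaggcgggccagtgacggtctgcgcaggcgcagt
Timm13: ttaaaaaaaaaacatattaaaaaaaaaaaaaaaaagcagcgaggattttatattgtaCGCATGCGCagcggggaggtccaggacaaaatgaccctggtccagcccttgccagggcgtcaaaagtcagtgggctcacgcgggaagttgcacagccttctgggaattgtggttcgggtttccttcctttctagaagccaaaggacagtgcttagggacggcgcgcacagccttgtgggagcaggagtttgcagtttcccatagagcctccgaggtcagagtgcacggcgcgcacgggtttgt

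The hearts of the mutants were next set against each other. Over all mice 0 of 47 members passed, where 0.0249% of all genes did. Before adjustment 5 of 47 members had p under 0.05 from limma, beside 2879 of all 16057 genes. Limma-voom also called 0 members. The groups did not overlap for 3 members, Timm10b, Tomm7 and Tomm40, all higher in Mrps12 ha/ha, against 16.6% of all genes. Without mouse 2 of Mrps12 ha/ha 12 members passed, against 23.2% of all genes. Timm10b, Timm13 and Tomm7 rose, and Hspd1, Dnaja3, Hspa9, Clpx, Afg3l2, Yme1l1, Oma1, Timm29 and Tomm70a fell. The fold of Hspd1 was 0.501 (adjusted p = 0.00854), while over all mice its log2 fold change was -0.61 ± 0.30 (adjusted p = 0.305). The fold of Timm13 was 1.61 (adjusted p = 0.0111), and over all mice its log2 fold change was 0.42 ± 0.21 (adjusted p = 0.312). Over all mice every member had an adjusted p from limma of 0.184 or more. This comparison shares its Mrps12 ha/ha hearts with the one against wild type.

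In Mrps12 ep/ep hearts the median member differed from the wild-type mean by 0.05 in mouse 1, -0.34 in mouse 2 and -0.01 in mouse 3 on the log2 scale. None of the 47 members passed against Mrps12+/+, and 0 had p under 0.05 before adjustment. Over all genes 0% were called by limma, 271 genes had p under 0.05 before adjustment, and limma-voom called 2 genes and 0 members. The median log2 fold change of the members was -0.10, with 40 below 0, and without mouse 2 of Mrps12 ep/ep it was 0.02 with 19 below 0. Afg3l2 shows the shape, with 5520, 4113 and 5553 in the Mrps12 ep/ep hearts and 4762 to 6041 in the wild type. The lowest members were Pam16 at -0.45 ± 0.40, Clpx at -0.23 ± 0.17 and Timm21 at -0.20 ± 0.17. Timm13 was the highest at 0.25 ± 0.21, followed by Timm17b at 0.08 ± 0.14 and Tomm34 at 0.05 ± 0.10. The groups did not overlap for Timm10b, Htra2 and Pam16, all lower in Mrps12 ep/ep, against 8.03% of all genes.

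**Figure D4:**
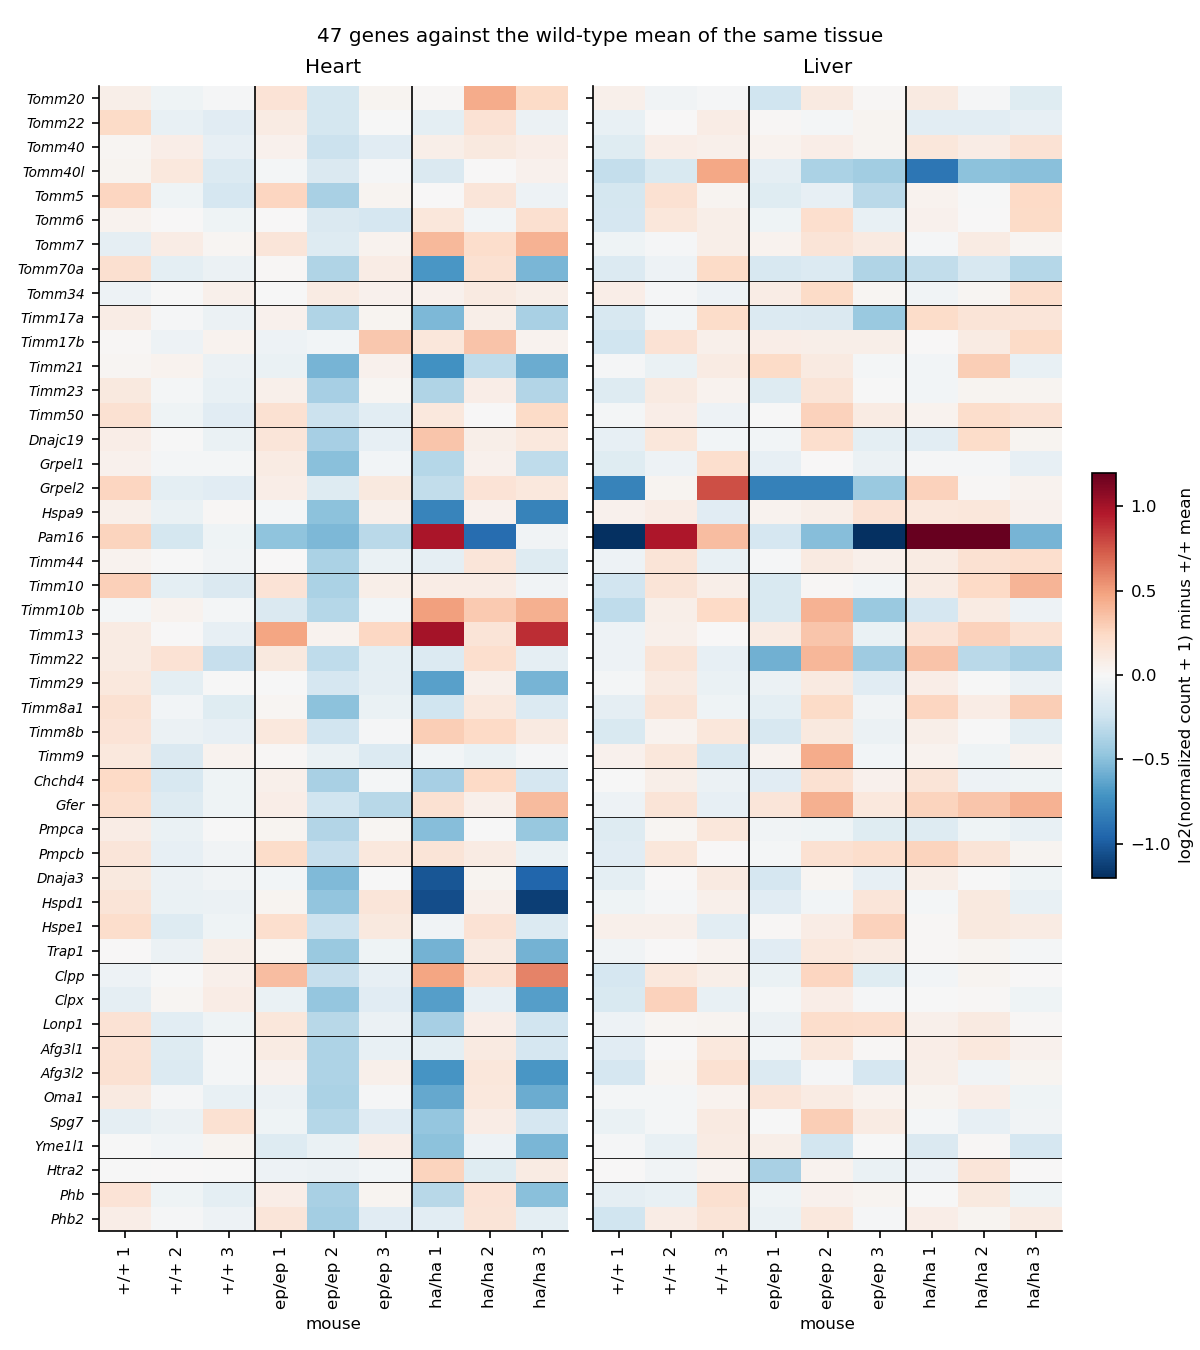
Log2 of normalized count plus 1 minus the wild-type mean of the same tissue for the 47 genes (rows, grouped by role) in the 9 hearts and 9 livers (columns, by genotype and mouse), red for higher and blue for lower. Heart mice 1 and 3 of ha/ha show the deepest decreases in Hspd1 and Dnaja3, heart mouse 2 of ep/ep is below the wild-type mean in 45 of 47 genes, and in the livers Pam16, Grpel2 and Tomm40l vary most.

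In the liver no member passed in any comparison. Hspd1 was 20846, 21387 and 22533 in Mrps12+/+, 19689, 21081 and 23848 in Mrps12 ep/ep and 21247, 23383 and 20257 in Mrps12 ha/ha livers. The log2 fold change of ha/ha against wild type was 0.00 ± 0.11. Afg3l2 was 2910, 3388 and 3781 in Mrps12+/+ and 3515, 3253 and 3414 in Mrps12 ha/ha livers. The standard error of the 4 matrix chaperones in this fit was 0.09 to 0.11 on the log2 scale.

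For Mrps12 ha/ha against Mrps12+/+ livers 0.00653% of all genes were called by limma and 0 of 47 members. Before adjustment 3 of these members had p under 0.05, beside 2163 of all 15314 genes. Limma-voom called 0 members. The groups did not overlap for 6 members, against 19.9% of all genes. Gfer, the sulfhydryl oxidase of the intermembrane space, was 1422, 1650 and 1380 in Mrps12+/+ and 1778, 1858 and 1976 in Mrps12 ha/ha livers (log2 0.34 ± 0.11, adjusted p = 0.251). Tomm40l, a paralog of the pore gene Tomm40, was 510, 549 and 862 in Mrps12+/+ and 340, 444 and 441 in Mrps12 ha/ha livers (log2 -0.62 ± 0.21, adjusted p = 0.254). Tomm70a was 5295, 5674 and 6962 against 4841, 5204 and 4680 (log2 -0.28 ± 0.11, adjusted p = 0.327). Mouse 3 of the wild-type livers was the highest for both. Its summed level of 5 acute phase markers was 1489949, against 176213 to 228789 in the other 8 livers, and without it the log2 fold changes were -0.38 for Tomm40l and -0.16 for Tomm70a. The part of this mouse's acute phase state in these values was not tested.

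Mrps12 ep/ep livers differed from Mrps12+/+ in 0 of 47 members, where 0.00653% of all genes were called by limma. By unadjusted p under 0.05 there were 0 members in this fit and 3 in limma-voom, which called 0. Of all 15314 genes, 1491 in this fit and 1443 in limma-voom had such a p. No member had groups without overlap, against 12.8% of all genes. Grpel2, the nucleotide exchange factor linked to stress conditions, was 2294, 4088 and 6812 in Mrps12+/+, 2283, 2285 and 2927 in Mrps12 ep/ep and 4839, 4050 and 4122 in Mrps12 ha/ha livers. The spread within the wild type, whose highest value was again in mouse 3, was wider than the difference between the groups (log2 -0.69 ± 0.32, adjusted p = 0.525).

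Mrps12 ha/ha against Mrps12 ep/ep livers also gave 0 of 47 members, with 0.00653% of all genes called by limma and 0 members by limma-voom. Before adjustment 3 members had p under 0.05 from limma, beside 1320 of all 15314 genes. The groups did not overlap for 8 members, against 17.8% of all genes. Timm17a was 959, 950 and 788 in Mrps12 ep/ep and 1250, 1195 and 1190 in Mrps12 ha/ha livers (log2 0.44 ± 0.13, adjusted p = 0.429). Grpel2 had a log2 fold change of 0.80 ± 0.32 (adjusted p = 0.546) and Timm10, a small TIM, one of 0.32 ± 0.14 (adjusted p = 0.568). Pam16 ran from 18 to 119 over the 9 livers and had the largest log2 fold change, 1.37 ± 0.69, with an adjusted p of 0.64. The gene lies at chr16:4616464-4624988, minus strand, and at these counts its differences were not detectable.

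The difference between tissues was tested directly, as the heart effect minus the liver effect in a fit over all 18 columns. For Mrps12 ha/ha against Mrps12+/+ 0 of 47 members passed, where 0.0711% of 14070 genes were called by limma. Before adjustment 1931 of all 14070 genes had p under 0.05, among them 5 of the 47 members. Their differences were -0.60 ± 0.22 for Timm21 (adjusted p = 0.265), 0.58 ± 0.24 for Tomm40l (adjusted p = 0.321), 0.30 ± 0.13 for Tomm7 (adjusted p = 0.336), -0.62 ± 0.28 for Hspa9 (adjusted p = 0.348) and -0.66 ± 0.30 for Dnaja3 (adjusted p = 0.357). Without heart mouse 2 of Mrps12 ha/ha 11 members passed, against 12.1% of all genes. The heart effect was then higher than the liver effect for Timm13, by 0.73 ± 0.17 (adjusted p = 0.0172), and lower for 10 genes. For Hspd1 the difference was -1.10 ± 0.21 (adjusted p = 0.00645), for Dnaja3 -0.997 ± 0.181 (adjusted p = 0.00571) and for Hspa9 -0.90 ± 0.19 (adjusted p = 0.00967). Over all mice it was -0.71 ± 0.34 for Hspd1 (adjusted p = 0.379) and 0.47 ± 0.25 for Timm13 (adjusted p = 0.421). The other 7 were Timm29, Timm21, Timm17a, Trap1, Clpx, Afg3l2 and Oma1. Over all mice every member had an adjusted p from limma of 0.265 or more. For Mrps12 ep/ep 0 of 47 members passed, against 0.00711% of all genes called by limma. Before adjustment 0 members had p under 0.05, beside 784 of all 14070 genes.

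For several paired genes the proportion differed between hearts and livers in every genotype. The ratio of Timm17a to Timm17b counts was 3.96 to 6.84 in the 9 hearts and 0.451 to 0.746 in the 9 livers. Within the hearts it was 6.62, 6.54 and 5.83 in Mrps12+/+ and 3.96, 5.23 and 4.67 in Mrps12 ha/ha, without overlap. The ratio of Tomm40 to Tomm40l was 0.681 to 0.877 in hearts and 1.75 to 4.65 in livers. Among the livers it was 2.57, 2.78 and 1.75 in Mrps12+/+, 2.57, 3.19 and 3.18 in Mrps12 ep/ep and 4.65, 3.47 and 3.71 in Mrps12 ha/ha, with ha/ha above all of the others. The ratio of Grpel1 to Grpel2 was 3.29 to 4.78 in hearts and 0.829 to 2.17 in livers. For each of these pairs the hearts and livers did not overlap, and the ratios were not tested.

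**Figure D5:**
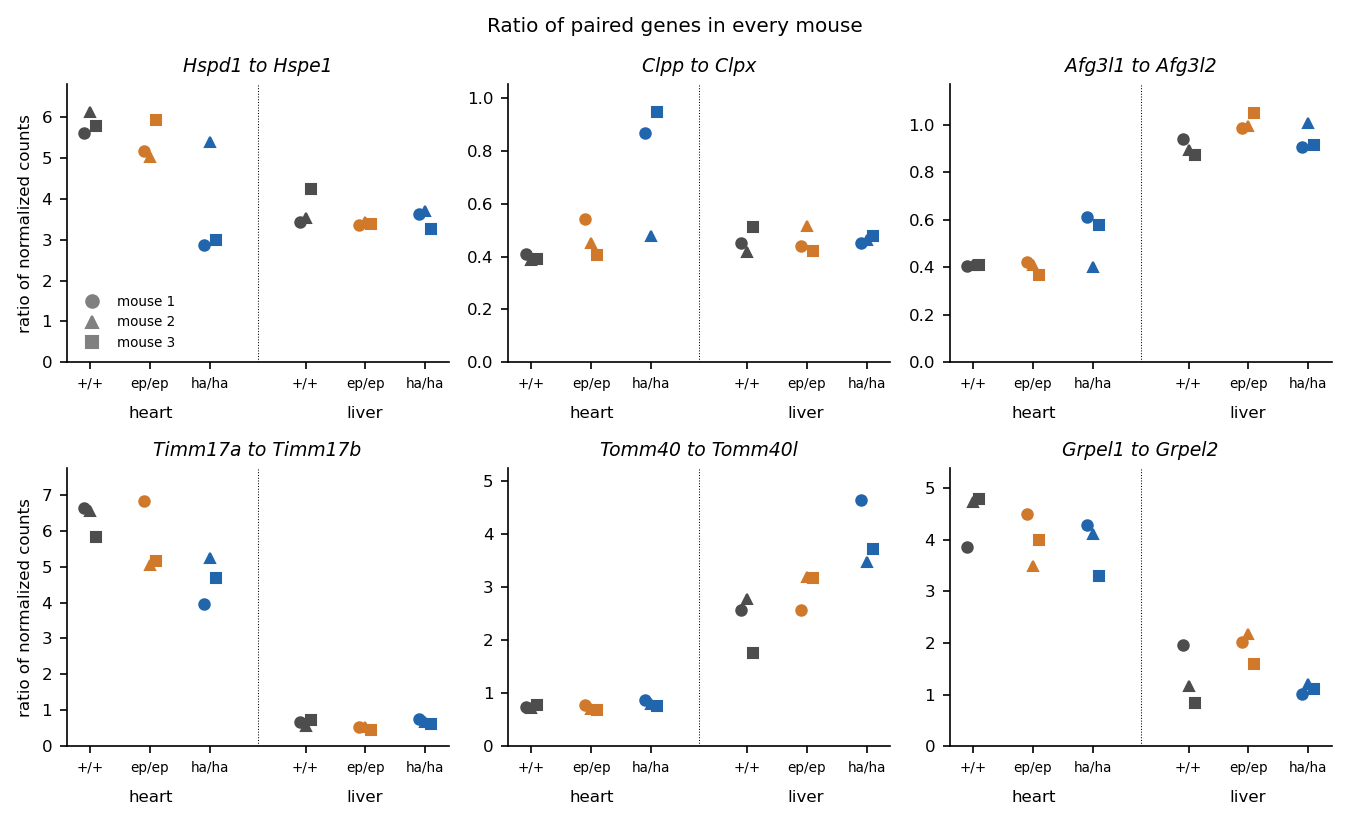
Ratio of the normalized counts of 6 gene pairs in each mouse, hearts on the left and livers on the right of each panel, by Mrps12 genotype, with the mice marked as circles, triangles and squares. Heart mice 1 and 3 of ha/ha stand apart for Hspd1 to Hspe1 (2.88 and 2.98) and Clpp to Clpx (0.869 and 0.946), and the lower panels show hearts and livers without overlap.

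Other genes of the same pathways were tested in the same hearts. In the fit with all mice none of 13 other import and assembly genes, 11 other processing and protease genes and 9 stress factors of the mitochondrial unfolded protein response passed in Mrps12 ha/ha against Mrps12+/+ hearts. Before adjustment 2, 3 and 4 of them had p under 0.05, beside 3168 of all 16057 genes. Without mouse 2 of Mrps12 ha/ha, where 12.2% of all genes were higher and 14.8% lower, 1 of the 13 rose and 2 fell. Ghitm, an inner membrane protein of cristae, was at a log2 fold change of -1.11 ± 0.14 (adjusted p = 0.00311), and at -0.75 ± 0.28 (adjusted p = 0.22) over all mice. Of the 11 genes listed under processing and proteases 2 rose and 5 fell. Lactb2, which is on that list but is not a protease, was at -0.88 ± 0.19 (adjusted p = 0.0122). Parl, the rhomboid protease, was at 0.44 ± 0.11 (adjusted p = 0.022). Over all mice Lactb2 was at -0.53 ± 0.28 (adjusted p = 0.302) and Parl at 0.40 ± 0.11 (adjusted p = 0.198). Of 78 mitochondrial ribosomal protein genes, 8 rose and 10 fell, with a median log2 fold change of 0.04, beside -0.12 for the members. The difference between these lists was not tested.

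The stress factors moved apart from the chaperones that they are known to induce. Ddit3, which encodes CHOP, was 678, 652 and 648 in Mrps12+/+, 828, 676 and 686 in Mrps12 ep/ep and 1373, 963 and 1138 in Mrps12 ha/ha hearts. All 3 ha/ha hearts were above the others, with a log2 fold change of 0.80 ± 0.15 (adjusted p = 0.144) over all mice and 0.92 ± 0.13 (adjusted p = 0.0036) without mouse 2. Trib3, a target of CHOP and ATF4, was 124, 103 and 98.7 against 243, 145 and 269, at 0.96 ± 0.24 (adjusted p = 0.191) and 1.24 ± 0.17 (adjusted p = 0.0036). Atf5, a factor tied to the mitochondrial response, was at 0.20 ± 0.17 (adjusted p = 0.505) and 0.39 ± 0.13 (adjusted p = 0.0648). In the livers Ddit3 lay the other way, at 1033, 806 and 820 in Mrps12+/+ and 464, 605 and 556 in Mrps12 ha/ha, with a log2 fold change of -0.71 ± 0.22 (adjusted p = 0.212). The heart effect minus the liver effect for Ddit3 was 1.51 ± 0.27, with an adjusted p of 0.0677 from limma.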

How the data were processed

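RNA-seq of 54 libraries (9 hearts and 9 livers, with 3 technical libraries each) was analysed from tables with 1 column per heart or liver. Whether a heart and a liver came from the same mouse is not in the labels. The fit over both tissues therefore had no mouse term and treated hearts and livers as independent. The authors trimmed reads (Trim Galore 0.4.1, cutadapt 1.18), quantified transcripts with Salmon 1.1.0 on GENCODE vM21 (GRCm38.p6), pooled libraries (assumed to be the technical ones of each mouse), and normalized counts with DESeq2 in each tissue without mitochondrial transcripts. The deposited values are counts divided by size factors with 1 decimal and were treated as a score. In each column 100.0% of low values were whole multiples of 1 step within 0.05, which gave whole reads, used for depth and limma-voom. The deposited tables of fold changes and p-values were not used. Salmon assigns reads shared by paralogs by estimate, so copies such as Timm8a1 and Timm8a2 are uncertain.

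Log2(value + 1) was fitted with limma 3.58.1 (R 4.3.3, lmFit, eBayes with a trend). Each tissue had 1 fit that held its 3 genotypes, limited to genes whose 9 mice averaged 10 or more. Fold changes are on the log2(value + 1) scale and understate those of low genes. Benjamini-Hochberg adjustment covered all genes tested, and the threshold was 0.05. Alternatives changed the pseudocount, filter, scaling, weights, block and mice. The mice are biological replicates, and no mice of a group agreed within sampling noise. The test was checked on simulated counts with 3 mice per genotype, the same spread for every gene and no deviating mouse. That check does not cover the fit without heart mouse 2 of Mrps12 ha/ha. Python 3.11.15 with pandas 2.3.3 and matplotlib 3.10.9 did the rest. The members and lists were chosen with earlier results of these data known. Named members were the 3 highest and 3 lowest of each comparison, those measured as protein by the study, those of fixed pairs, and those with an adjusted p under 0.05. Lists of acute phase, brown and white adipocyte, macrophage, mesothelium and skeletal muscle markers were also summed. In hearts the white adipocyte sum was 4881 in wild-type mouse 3 and at most 999 in the others, and the brown adipocyte sum was 12172 and at most 1737. The macrophage and skeletal muscle sums of hearts were 2264 to 4233 and 54473 to 106560. In hearts the skeletal muscle sum lay almost wholly in Ckm (43966 to 78895) and Acta1 (2978 to 37619). The other markers of that list, Myh4, Myh1, Tnnt3 and Pvalb, were at most 3.7, 5.5, 41.5 and 53.4 in hearts. Skeletal muscle sums of livers were 20037 and 24524 in wild-type mice 1 and 2 and at most 193 in the others. The values of 1 gene of the stress factor list are not reported here.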

Additional observations from a re-analysis of the deposited data

How the results depend on the processing

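The 8 counts of members called, each 0, were recomputed under 126 alternatives and were unchanged in 120. Array weights gave 18 members in Mrps12 ha/ha against Mrps12+/+ hearts, 21 against Mrps12 ep/ep hearts and 13 in the heart minus liver effect. Over all genes they called 5573 of 16057, 6314 of 16057 and 2058 of 14070, respectively. Leaving out each mouse in turn gave 0 to 16, 0 to 12 and 0 to 11 members in the same order, and heart mouse 2 of Mrps12 ha/ha alone gave the highest value each time. Without that mouse 27%, 23.2% and 12.1% of all genes were called. That fit has 2 mutant hearts, whose spread is pooled with the other groups, and whether the mouse or the other 2 stand for the genotype was not tested. The replicate block gave 0 members in each of the 6 comparisons, and same-numbered mice did not deviate together in every pair (correlations from -0.231 to 0.578), so the numbers were not taken as pairs. The median member log2 fold change in Mrps12 ha/ha against Mrps12 ep/ep livers was 0.09 without ep/ep mouse 2 and 0.02 with it. Of 645 alternatives for 43 values of named members, 611 kept direction and call, 27 passed the threshold only there (array weights or without heart mouse 2 of ha/ha) and 7 changed sign, each at an adjusted p of 0.88 or more. These were Tomm5 in ha/ha hearts against wild type (-0.008 with limma-voom, and -0.0702 to 0.1604 when leaving out a mouse, below 0 without wild-type mouse 3 or ha/ha mouse 2), Timm17b in ep/ep hearts (-0.0483 without ep/ep mouse 3, up to 0.147), Pam16 in ha/ha against ep/ep hearts (-0.0316 without ha/ha mouse 1, up to 0.916), Timm22 in ha/ha livers (-0.3576 up to 0.0072 without ha/ha mouse 3) and Timm9 in ha/ha against ep/ep livers (-0.2292 up to 0.0104 without ep/ep mouse 2). Over all genes the calls in ha/ha against wild-type hearts numbered 5, with 5573 under array weights and 4330 without mouse 2. Quantile scaling moved the median member there from -0.04 to 0.01. The alternatives with edgeR and DESeq2 were not run, since the values were deposited after scaling. With 3 mice a group, differences within the standard errors given were not detectable.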
